A study of Mus musculus with 18 samples.

Results

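Livers of pups born from cryopreserved germline stem cells were examined for 10 genes of the endoplasmic reticulum (ER) stress and amino acid response, chosen by name: *Hspa5*, *Hsp90b1*, *Creld2*, *Xbp1*, *Atf4*, *Ddit3*, *Atf3*, *Trib3*, *Asns* and *Chac1*. The count table holds 32285 genes, of which 13356 had enough counts to be tested, and all 10 genes were among these. Space pups were the F1 offspring of germline stem (GS) cells, cultured spermatogonial stem cells of DBA/2 background that carry an EGFP transgene by the study's methods, which had been stored frozen aboard the International Space Station (ISS) over 6 months. Ground pups came from GS cells kept frozen for the same time on Earth. In both cases the thawed cells were transplanted into testes of infertile W mice, which carry a *Kit* mutation, and these recipients were mated with C57BL/6 females. The pups were killed at 10 weeks of age. Wild-type BDF1 mice, whose age is not given, served as controls, and every animal was labelled wild-type and B6D2F1. Each group held 6 libraries, numbered 1 to 6. The labels do not say which pups shared a recipient father, a litter or a GS cell culture, so p-values measure the spread between these animals only.

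Proteins entering the ER are folded by chaperones, and an excess of unfolded proteins is sensed by IRE1 (*Ern1*), PERK (*Eif2ak3*) and ATF6. IRE1 splices *Xbp1* mRNA, ATF6 is cleaved into a transcription factor, and both raise chaperone genes. PERK, and GCN2 (*Eif2ak4*) when amino acids are short, phosphorylate eIF2α, which lowers general translation but favours that of ATF4, the activator of amino acid synthesis and transport genes. The liver, which secretes most plasma proteins, carries a high folding load and responds to feeding through these pathways.

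Total counts ranged from 15407450 to 20562351 per library, and 3 counts, the level up to which a count of 0 is possible by counting error, correspond to between 0.134 and 0.234 CPM (counts scaled by TMM-adjusted library size). *Xist* had 0 to 187 counts in replicates 1 to 3 and 12218 to 21557 in replicates 4 to 6, and the summed Y-linked counts were 1822 to 2482 and 0 to 26. Sex is not labelled, and the study describes the pups analysed as males and females. Comparisons were therefore made within replicates 1 to 3 and within replicates 4 to 6. Hepatocyte markers were abundant in every library, and pancreatic acinar markers, whose source tissue is rich in ER chaperones, reached at most 0.395 CPM summed over 5 genes. Summed over 5 genes each, stellate cell markers in replicates 1 to 3 were at 134 to 160 CPM in Space, 118 to 139 in Ground and 89.8 to 107 in BDF1, without overlap between pups and BDF1. Hepatocyte markers were at 86144 to 87481 CPM in Space, 69337 to 86514 in Ground and 56849 to 71361 in BDF1 in that set, and at 225091 to 275852, 214736 to 374263 and 75517 to 97586 in replicates 4 to 6. Liver endothelial markers were at 49.6 to 53.9, 60.3 to 97.7 and 66.7 to 78.8 CPM in replicates 1 to 3, so Space lay below BDF1, and at 55.8 to 71.6, 84.5 to 105 and 46.9 to 98.6 CPM in replicates 4 to 6. Cholangiocyte markers in replicates 4 to 6 were at 22.2 to 23.6 CPM in Space, 12.6 to 19.2 in Ground and 22.0 to 25.0 in BDF1, so Ground lay below both. B and plasma cell markers there were at 3.36 to 4.91 CPM in Space, above 2.46 to 2.67 in BDF1, and at 2.22 to 3.73 in Ground. Kupffer cell markers were at 62.1 to 84.8 CPM in Space, 62.3 to 152 in Ground and 58.6 to 86.5 in BDF1 in replicates 1 to 3, and at 117 to 162, 106 to 164 and 58.1 to 127 in replicates 4 to 6. Within replicates 4 to 6, *Alb* took 17.6 to 24.1% of counts in the pups and 6.72 to 8.03% in BDF1. *Alb* is among the 5 hepatocyte markers and was the largest part of their sum in every library, at 38189 to 341906 CPM. No other hepatocyte marker exceeded 19761 CPM, so that sum and the *Alb* share are not separate observations. *Serpina6* took 3.43% in Space replicate 4, 3.41% in Ground replicate 5 and 2.18% in Ground replicate 6, against at most 0.107% elsewhere. Haploid germ cell markers reached 46.3 CPM in Space replicate 6 and 4.75 CPM in BDF1 replicate 3, against at most 0.645 CPM elsewhere. The part of these differences in the results below was not tested, but it is stated where a named call was lost without these libraries. In bulk liver, fewer cells of a type and less RNA per cell cannot be told apart.

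The genes differed widely in level. Per kilobase of exon, the BDF1 libraries had 201 ± 24.4 CPM (SD, n = 6) of *Hspa5* and 185 ± 13.5 of *Hsp90b1*. *Xbp1*, *Creld2* and *Atf4* followed with 52.1 ± 4.18, 40.8 ± 10.6 and 39.1 ± 4.03 CPM per kilobase, and the spread of *Creld2* overlapped those of both others, as those of *Hspa5* and *Hsp90b1* overlapped each other. *Trib3* and *Ddit3* stood at 6.06 ± 3.37 and 4.18 ± 1.51, also within each other's spread over both sets. Their order differed by set, with means of 3.23 and 5.37 in replicates 1 to 3 and 8.89 and 2.99 in replicates 4 to 6. *Chac1* had 1.25 ± 0.699, *Atf3* 0.347 ± 0.161 and *Asns* 0.246 ± 0.237 CPM per kilobase, so these were scarce transcripts in control liver. The order of *Atf3* and *Asns* also differed by set, with means of 0.283 and 0.445 in replicates 1 to 3 and 0.411 and 0.0479 in replicates 4 to 6. *Asns* was read from 0 to 34 counts per library. In mm10 coordinates with GENCODE M21 gene models, *Hspa5* (ENSMUSG00000026864) spans chr2:34771970-34777547 on the plus strand, *Hsp90b1* (ENSMUSG00000020048) chr10:86690209-86705509 (minus), *Creld2* (ENSMUSG00000023272) chr15:88819646-88826683 (plus), *Xbp1* (ENSMUSG00000020484) chr11:5520659-5525893 (plus), *Atf4* (ENSMUSG00000042406) chr15:80255184-80257541 (plus). Of the others, *Ddit3* lies at chr10:127290774-127296288 (plus), *Atf3* (ENSMUSG00000026628) at chr1:191170296-191218039 (minus), *Trib3* (ENSMUSG00000032715) at chr2:152337422-152344032 (minus), *Asns* (ENSMUSG00000029752) at chr6:7675169-7693254 (minus), *Chac1* (ENSMUSG00000027313) at chr2:119351229-119354381 (plus). *Ddit3* is listed under 2 identifiers, of which ENSMUSG00000025408 was used and ENSMUSG00000116429, which overlaps it, had 0 counts in every library. Other annotated genes shared 15.7% of the exonic bases of *Hsp90b1* and 10.9% of those of *Ddit3*, including *Mars* on the opposite strand of *Ddit3*, and no base of the other genes.

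Promoter matches to elements through which the pathways act divide the genes in part. The ER stress response element (ERSE), written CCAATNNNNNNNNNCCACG, is bound by NF-Y with ATF6 or XBP1. The C/EBP-ATF response element (CARE), written TGATGNAA, is bound by ATF4 and its partners. Both were searched on both strands of RefSeq promoters (GRCm38.p6, which is mm10), from 250 bases before to 50 after each annotated start, and the motifs do not overlap each other in these genes. An ERSE was present in *Hspa5*, *Hsp90b1* and *Creld2*, or 3 of the 10 genes, against 0.119% of 32851 promoters of the same length. A CARE was present in *Atf3*, *Trib3*, *Asns* and *Chac1*, or 4 of the 10, against 3.97%. These 30-base windows, read 5′ to 3′ on the strand of the gene with the motif in capitals, are shown because covariation between libraries is described along this division.
Hspa5, ERSE, chr2:34772019-34772048, plus strand: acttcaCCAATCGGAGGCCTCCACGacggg
Hsp90b1, ERSE, chr10:86705633-86705662, minus strand: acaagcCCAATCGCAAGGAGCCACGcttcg
Hsp90b1, ERSE in the opposite orientation, chr10:86705528-86705557, minus strand: agagtgCGTGGTGAGGCACGATTGGtgagt
Creld2, ERSE in the opposite orientation, chr15:88819514-88819543, plus strand: gcttctCGTGGCGAGCCTCAATTGGtccac
Atf3, CARE in the opposite orientation, chr1:191183425-191183454, minus strand: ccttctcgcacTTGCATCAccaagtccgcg
Trib3, CARE in the opposite orientation, chr2:152344028-152344057, minus strand: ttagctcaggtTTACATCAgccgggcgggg
Asns, CARE, chr6:7693214-7693243, minus strand: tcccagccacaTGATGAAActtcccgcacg
Chac1, CARE in the opposite orientation, chr2:119351038-119351067, plus strand: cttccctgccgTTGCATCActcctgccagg

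The ERSE of *Hspa5* began 65 bases before the start and that of *Creld2* 126 bases before it, while *Hsp90b1* carried copies at 212 and 107 bases. The CARE of *Asns* lay 23 bases before the start, that of *Atf3* 110 bases and that of *Chac1* 193 bases before it. In *Trib3* the match began 15 bases after the RefSeq start, and the bases after that start were not found in a GENCODE transcript. All these distances are from RefSeq starts, which differ from the ends of the GENCODE spans given above. By those spans, the ERSE of *Hspa5* and the CARE of *Asns* and *Atf3* lie inside the gene, and that of *Trib3* before its 5′ end. No match to either motif was found in the windows of *Xbp1*, *Atf4* and *Ddit3*, and for *Xbp1* too the bases after the RefSeq start were not found in a GENCODE transcript. A match is a description of the letters and not of factor binding.

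**Figure D1:**
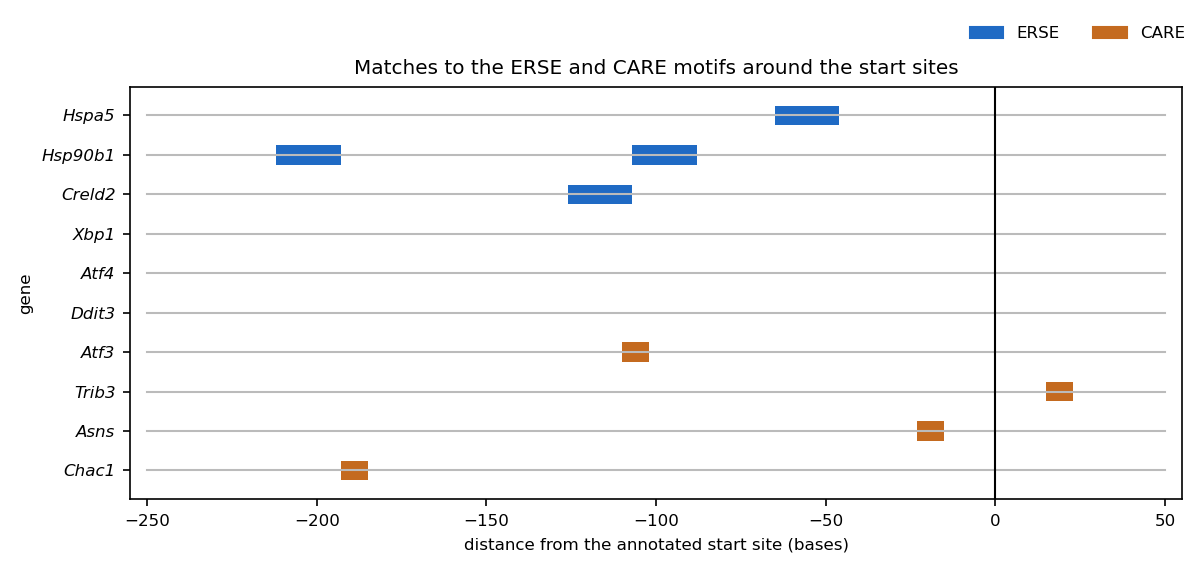
Position of ERSE (blue) and CARE (orange) matches in the promoter windows of the 10 genes. The horizontal axis is the distance in bases from the RefSeq start site. ERSE matches lie in the 3 chaperone and folding genes, CARE matches in *Atf3*, *Trib3*, *Asns* and *Chac1*.

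The ER folding genes had higher means in pups than in BDF1 in replicates 1 to 3, but none passed the test (edgeR's quasi-likelihood test, Benjamini-Hochberg adjusted p under 0.05 over all tested genes). *Hspa5* encodes BiP, the main Hsp70 chaperone of the ER lumen and the brake on the stress sensors. It was measured at 1653, 1377 and 1549 CPM in Space replicates 1 to 3, at 1358, 907 and 2002 CPM in Ground and at 1000, 938 and 805 CPM in BDF1. All 3 Space libraries lay above all 3 BDF1 libraries, whereas Ground replicate 2 lay inside the BDF1 range. The log2 change was 0.74 (SE 0.335, adjusted p = 0.234) for Space and 0.64 (SE 0.334, adjusted p = 0.365) for Ground against BDF1 by edgeR. For Space, limma voom with quality weights gave 0.76 with an adjusted p of 0.0173, and edgeR without the 3 libraries rich in *Serpina6* gave 0.73 with 0.0472, so the side of the threshold depended on the fit. Without Ground replicate 3 the Ground change was 0.30. None of the libraries rich in *Serpina6* is in replicates 1 to 3, but edgeR took the spread of each gene from all libraries together. The SD of *Hspa5* log2 CPM was 0.134 in Space, 0.571 in Ground and 0.160 in BDF1 in replicates 1 to 3. In replicates 4 to 6 it was 0.579, 0.744 and 0.125.

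Among replicates 4 to 6, *Hspa5* was at 1212, 554 and 703 CPM in Space, 395, 1109 and 652 CPM in Ground and 720, 856 and 786 CPM in BDF1. The pup libraries lay on both sides of the narrow BDF1 range, with Space replicate 4 and Ground replicate 5 above it. These are the libraries with the highest share of *Serpina6*, and the part of that difference was not tested. The changes were 0.06 (SE 0.333) for Space and -0.13 (SE 0.333) for Ground, with adjusted p of 0.920 and 0.831 by edgeR. Without the 3 libraries rich in *Serpina6* they were -0.33 and -0.99 (adjusted p = 0.412 and 0.0750), with 2 Space libraries and 1 Ground library left.

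*Creld2*, an ER-resident disulphide isomerase-like protein, showed the same order of libraries within each group and set. It had 160, 109 and 122 CPM in Space replicates 1 to 3, 118, 71.0 and 220 CPM in Ground and 79.2, 61.8 and 54.8 CPM in BDF1. Again Space lay wholly above BDF1 and Ground replicate 2 did not. The changes of 1.00 (SE 0.545) for Space and 1.06 (SE 0.545) for Ground had adjusted p of 0.338 and 0.354 by edgeR, and limma voom gave the Space change an adjusted p of 0.0332. The second replicate set, 4 to 6, had 147, 35.9 and 48.6 CPM in Space, 27.4, 135 and 43.8 CPM in Ground and 35.3, 53.5 and 49.4 CPM in BDF1, so 1 library of each pup group stood above the others. The changes there, 0.74 for Space and 0.58 for Ground, turned to -0.13 and -0.75 without the libraries rich in *Serpina6* (adjusted p = 0.859 and 0.375, edgeR). With both replicate sets in 1 model, *Creld2* was 1.82-fold higher in Space (95% interval 1.06 to 3.14, adjusted p = 0.143) and 1.77-fold higher in Ground (1.03 to 3.04, adjusted p = 0.164, edgeR) than in BDF1.

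*Hsp90b1* encodes GRP94, the Hsp90 of the ER. It varied least of the 3, with 1033, 834 and 1011 CPM in Space replicates 1 to 3, 880, 656 and 1154 CPM in Ground and 781, 797 and 645 CPM in BDF1. Space lay above BDF1 by 1.29-fold (95% interval 0.929 to 1.80) without overlap, and adjusted p was 0.396 by edgeR. It ranged from 644 to 1005 CPM in Space, 611 to 1079 CPM in Ground and 735 to 772 CPM in BDF1 in replicates 4 to 6, and the groups overlapped.

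Among the transcription factors, *Atf3* alone passed the test, in Ground replicates 1 to 3. ATF3 is an immediate early factor of the ATF/CREB family that many stresses induce. It was at 3.07, 0.897 and 7.19 CPM in Ground replicates 1 to 3, at 1.71, 1.13 and 0.860 CPM in Space and at 0.328, 0.769 and 0.731 CPM in BDF1. The corresponding counts were 63, 17 and 138 in Ground, 29, 18 and 16 in Space and 7, 14 and 14 in BDF1. The pup libraries all lay above the BDF1 libraries, but Ground replicate 2 and Space replicate 3 only barely. *Atf3* was 6.11-fold higher in Ground than in BDF1 (95% interval 2.47 to 15.1), a log2 change of 2.61 (SE 0.618, adjusted p = 0.0381, edgeR). It missed the threshold when any of 9 single libraries was left out, and was 1.71 (adjusted p = 0.181) without Ground replicate 3. It was 2.77 (adjusted p = 0.140) without the 2 libraries highest in haploid germ cell markers. In Space the log2 change was 1.02 (SE 0.654, adjusted p = 0.423, edgeR). Over replicates 4 to 6, *Atf3* was at 0.925 to 1.69 CPM in Space, 0.526 to 1.58 CPM in Ground and 0.605 to 1.38 CPM in BDF1, with all groups overlapping.

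*Xbp1*, *Atf4* and *Ddit3* did not pass the test in any comparison scaled with TMM factors. *Xbp1* ranged from 172 to 197 CPM in Space replicates 1 to 3, 144 to 275 CPM in Ground and 160 to 189 CPM in BDF1. Space replicates 4 to 6 had 212, 190 and 203 CPM of *Xbp1* against 149, 173 and 172 CPM in BDF1, without overlap, and 133 to 257 CPM were found in Ground. The Space change there was 1.22-fold (95% interval 0.894 to 1.67, adjusted p = 0.390, edgeR). These are counts of the whole gene and do not tell spliced from unspliced *Xbp1*. *Atf4* was the steadiest, at 85.3 to 105 CPM over the libraries numbered 1 to 3 and 57.6 to 94.2 CPM over those numbered 4 to 6. Its log2 changes against BDF1 were -0.12 and -0.11 in replicates 1 to 3 and -0.23 and -0.24 in replicates 4 to 6, and ATF4 protein, which is set by translation, was not measured. *Ddit3*, which encodes the proapoptotic factor CHOP, was at 10.8, 12 and 11.8 CPM in Space replicates 1 to 3, 8.29, 15.1 and 18.0 CPM in Ground and 10.7, 9.61 and 7.26 CPM in BDF1. Space lay just above BDF1 and Ground overlapped it. The *Ddit3* change was 1.25-fold for Space (95% interval 0.858 to 1.83) and 1.5-fold for Ground (1.03 to 2.18), with adjusted p of 0.534 and 0.275 by edgeR. All *Ddit3* values of replicates 4 to 6 lay between 4.28 and 7.18 CPM.

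*Trib3* was the gene whose Ground change differed between the replicate sets by the test in edgeR. It encodes a pseudokinase that ATF4 and CHOP induce and that feeds back on them. In replicates 1 to 3 it was at 11.2, 8.81 and 22.6 CPM in Ground, 4.59, 11.5 and 8.17 CPM in Space and 5.48, 9.06 and 6.06 CPM in BDF1. In replicates 4 to 6 it was at 10.9, 6.71 and 7.05 CPM in Ground, 6.64, 13.8 and 15.8 CPM in Space and 23.3, 15.6 and 17.7 CPM in BDF1. The BDF1 libraries numbered 4 to 6 lay above all Ground libraries of that set, and Space replicate 6 lay just inside their range. *Trib3* was 2.29-fold lower in Ground than in BDF1 there, a log2 change of -1.20 (SE 0.381, adjusted p = 0.0436, edgeR). In replicates 1 to 3 the Ground change was 1.05 (SE 0.383, adjusted p = 0.180, edgeR). The difference between the sets was tested directly and was -2.25 (SE 0.541, adjusted p = 0.0350, edgeR). It was -1.73 (adjusted p = 0.0884) without Ground replicate 3, and the change in replicates 4 to 6 was -0.79 (adjusted p = 0.367) without the libraries rich in *Serpina6*, Ground replicates 5 and 6 among them. Without those libraries the difference between the sets was -1.85 (adjusted p = 0.141) for *Trib3*, and that of *Hspa5* in Ground, -0.77 (adjusted p = 0.438) with all libraries, was -1.63 (adjusted p = 0.0425, edgeR). Ground replicate 4, the lowest of the 18 libraries for *Hspa5*, is then the only Ground library of replicates 4 to 6, and its spread is assumed to be that of the other groups, here and wherever these libraries are left out. Without the germ cell libraries, *Trib3* in Ground replicates 4 to 6 was at -1.20 with an adjusted p of 0.0561, and its difference between the sets was -2.17 (adjusted p = 0.105). Space showed -0.63 (SE 0.372, adjusted p = 0.272) in replicates 4 to 6, and its difference between the sets was -0.87 (adjusted p = 0.414, edgeR).

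*Asns* encodes asparagine synthetase, a classic target of the amino acid response. It had 9, 9 and 18 counts in Space replicates 4 to 6, 0, 18 and 3 in Ground and 4, 1 and 3 in BDF1. Space lay wholly above BDF1, whose libraries stood near 3 counts, and Ground spanned both. The fitted log2 change of Space was 2.51 (SE 0.848, adjusted p = 0.0621, edgeR), and it depends on the prior count at this depth. In DESeq2 the adjusted p was 0.0166 and in limma voom 0.0311. In replicates 1 to 3, *Asns* ranged from 10 to 25 counts in Space, 22 to 34 in Ground and 19 to 32 in BDF1, and the groups overlapped.

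*Chac1*, a glutathione-degrading enzyme induced through ATF4, was at 7.75, 1.64 and 5.78 CPM in Ground replicates 1 to 3, 1.41, 4.15 and 3.71 CPM in Space and 0.749, 0.988 and 2.30 CPM in BDF1. In each pup group 1 library lay within the BDF1 range. The log2 change was 1.91 (SE 0.683, adjusted p = 0.169) for Ground and 1.20 (SE 0.697, adjusted p = 0.371) for Space by edgeR, and limma voom gave the Ground change an adjusted p of 0.0279. For replicates 4 to 6, *Chac1* was at 0.992 to 6.35 CPM in Ground, 0.783 to 3.36 CPM in Space and 1.67 to 3.78 CPM in BDF1, all overlapping.

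**Figure D2:**
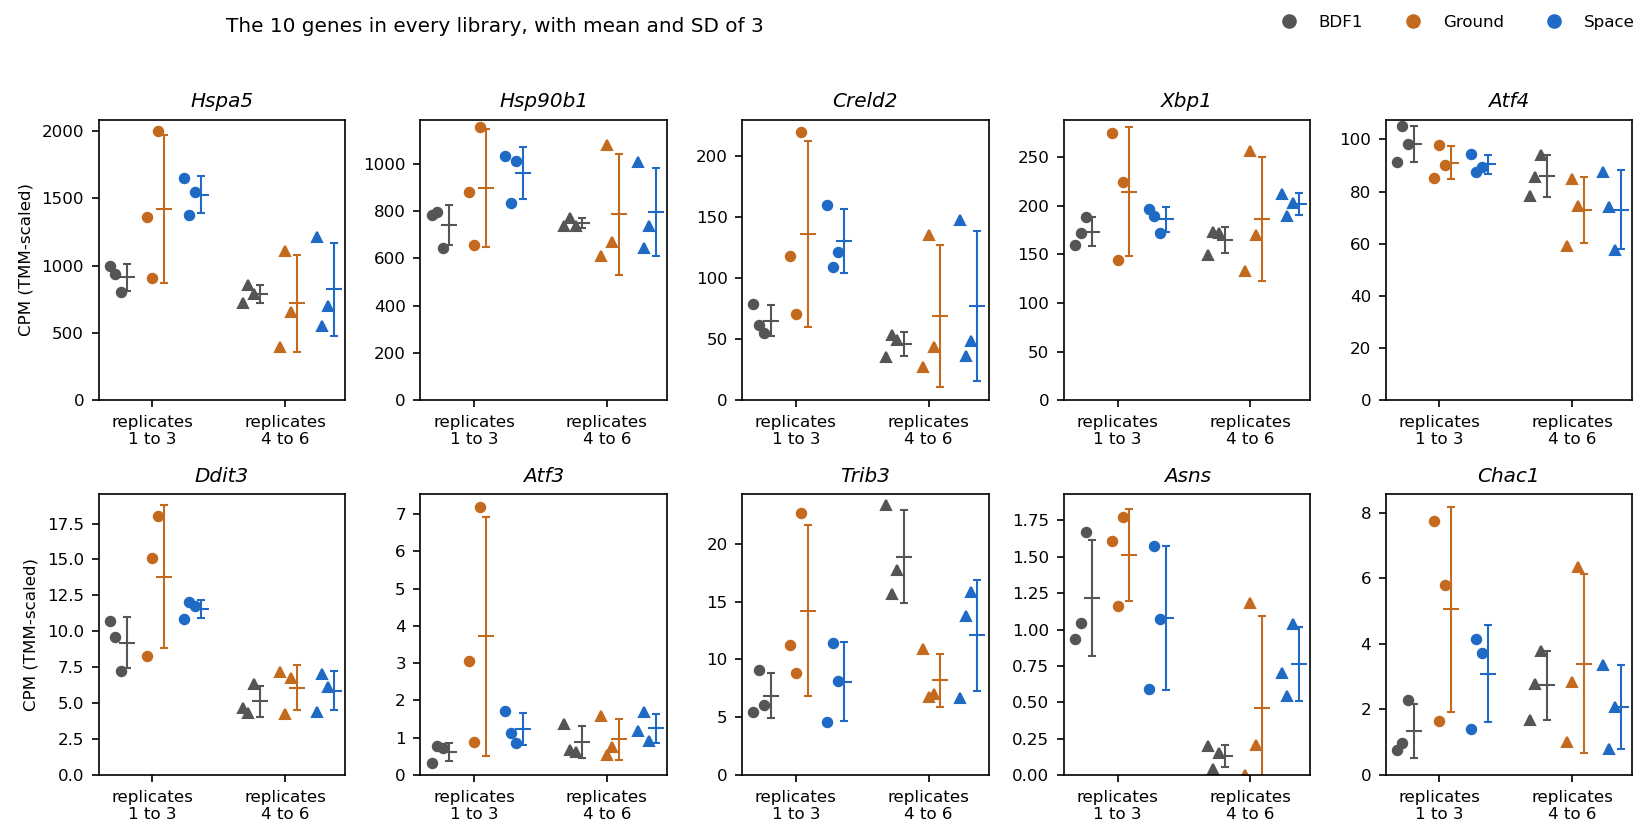
CPM of the 10 genes in every library. Circles are replicates 1 to 3 and triangles replicates 4 to 6, and horizontal marks with bars give the mean and SD of 3 libraries, with bars stopped at 0. For *Hspa5*, the 3 Space libraries numbered 1 to 3 lie above the BDF1 libraries.

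Counts over the 10 genes are given beside the share of all genes called in the same comparison. For Space against BDF1 in replicates 1 to 3, 0 of the 10 passed in edgeR, while 4.64% of all genes passed, and 1 had an unadjusted p under 0.05, against 19.3%. DESeq2 called 0, against 7.42% of all genes, and limma voom 2, against 17.7%. The groups did not overlap for 5 of the 10, against 35.2% of all genes. The median log2 change of the 10 was 0.35, with 8 above 0, against -0.00360 over all genes. For Ground in replicates 1 to 3, 1 passed (*Atf3*), against 1.92% of all genes, and 4 had an unadjusted p under 0.05, against 15.9%. The groups did not overlap for 1 of the 10, against 23.9%, and the median change was 0.61, with 9 above 0. Space and Ground were compared with the same BDF1 libraries, so their changes are not independent of each other.

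In replicates 4 to 6, 0 of the 10 passed for Space against BDF1 in edgeR, against 11.9% of all genes, and 1 had an unadjusted p under 0.05, against 29.4%. DESeq2 and limma voom each called 1, against 15.9% and 18.6%. For Ground 1 passed (*Trib3*), against 15.2% of all genes. The groups did not overlap for 2 of the 10 in Space and 1 in Ground, against 31.5% and 30.0% of all genes. The median changes were 0.14 and 0.15, each with 7 above 0. Scaling by total counts in place of TMM factors moved the median of all genes in these comparisons to -0.39 for Space and -0.46 for Ground, and under that scaling *Atf4* was called lower in both pup groups. The lower *Trib3* in Ground was called under both scalings, but not in 5 of the 11 alternatives, limma voom and the replicate block among them, nor in 9 of 18 fits that each left out 1 library.

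**Figure D3:**
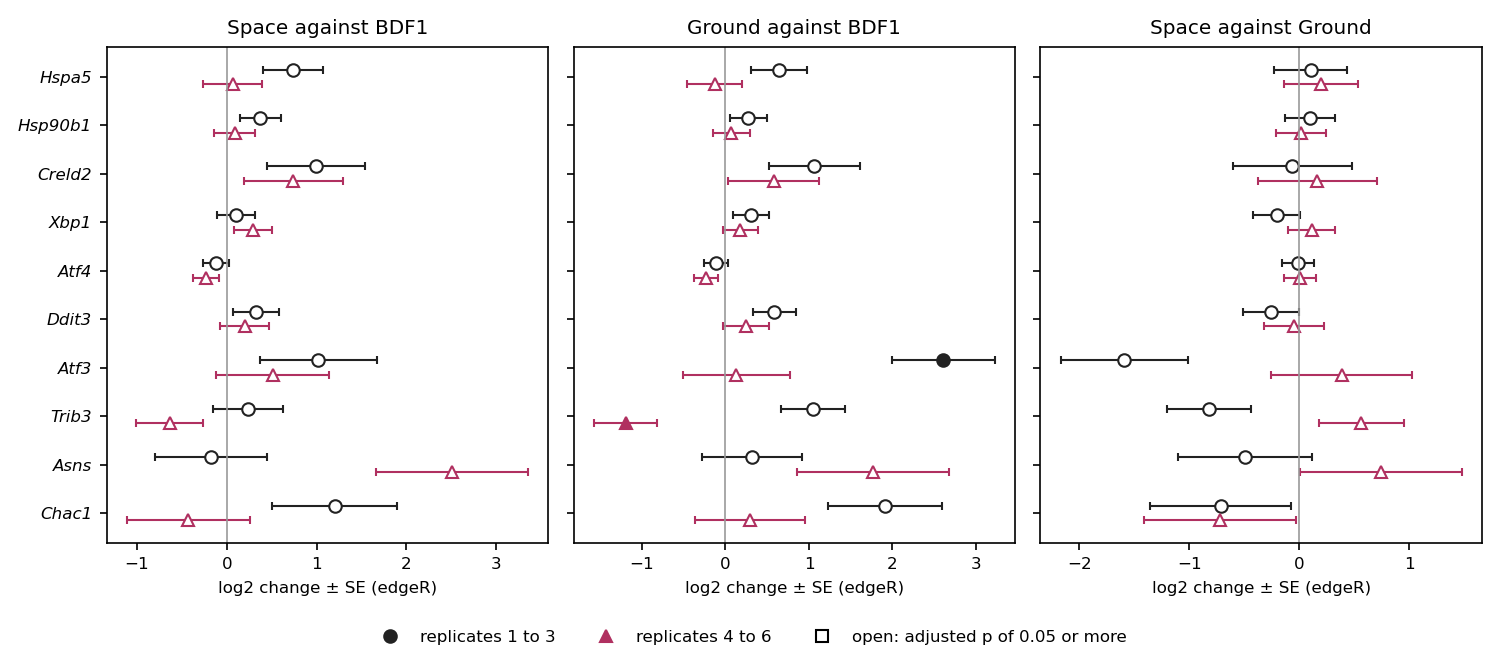
Log2 changes with their SE from edgeR for the 3 pairwise comparisons, in replicates 1 to 3 (black circles) and 4 to 6 (red triangles). Open symbols did not pass the test, and the filled ones are *Atf3* in Ground replicates 1 to 3 and *Trib3* in Ground replicates 4 to 6.

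Space and Ground pups were compared directly to ask whether storage in orbit, as opposed to freezing on Earth, left a difference in these genes. None of the 10 passed in edgeR in either set, nor in DESeq2, against 0.366% and 1.33% of all genes, or limma voom, against 3.62% and 0%. In replicates 1 to 3, 0.00749% of all genes passed, 2 of the 10 had an unadjusted p under 0.05, against 9.67% of all genes, and the groups did not overlap for 0 of the 10, against 16.6% of all genes. For replicates 4 to 6, 0.0225% of all genes passed, 0 of the 10 had an unadjusted p under 0.05, against 13.9%, and the groups did not overlap for 0 of the 10, against 13.7%. *Hspa5* differed by a log2 of 0.10 (95% interval -0.60 to 0.81) in replicates 1 to 3 and 0.20 (-0.51 to 0.90) in replicates 4 to 6. *Atf4* had the narrowest interval, -0.31 to 0.30 and -0.30 to 0.31. *Atf3* was 3.01-fold lower in Space in replicates 1 to 3 (log2 -1.59, SE 0.578, adjusted p = 0.401, edgeR), and *Trib3* 1.76-fold lower (log2 -0.82, SE 0.382, adjusted p = 0.515). For *Chac1* the intervals reached from -2.07 to 0.64 and from -2.18 to 0.73, so the data leave room for changes of several fold.

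With both replicate sets in 1 model, 0 of the 10 passed in edgeR for Space against BDF1, against 10.0% of all genes, 1 had an unadjusted p under 0.05, against 26.8%, and DESeq2 and limma voom also called 0, against 14.0% and 19.4%. For Ground 0 passed, against 11.1%, and 3 had an unadjusted p under 0.05, against 27.4%. DESeq2 and limma voom each called 1, against 14.8% in either tool, *Atf3* (log2 1.51, SE 0.527, adjusted p = 0.0719 in edgeR). For Space against Ground 0 passed, against 0% of all genes in edgeR, and 0 had an unadjusted p under 0.05, against 13.4%, while DESeq2 and limma voom called 128 and 584 genes, none of them among the 10. The change from replicates 1 to 3 to replicates 4 to 6 was called for 0 of the 10 in Space against BDF1 in edgeR and DESeq2 against 3.19% and 6.36% of all genes, and for 2 in limma voom, against 11.3%, and 1 had an unadjusted p under 0.05, against 19.0%. It was called for 1 in Ground against BDF1 (*Trib3*), against 2.74%. For Space against Ground it was called for 0 by all 3 tools, against 0% of all genes in edgeR, and 2 had an unadjusted p under 0.05, against 7.77%.

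Ground replicate 3 was the highest of all 18 libraries for 6 of the 10 genes (*Hspa5*, *Hsp90b1*, *Creld2*, *Ddit3*, *Atf3* and *Asns*), and Ground replicate 1 for *Chac1* and *Xbp1*. Ground replicate 2 was the lowest of its 3 libraries for 8 genes. Mitochondrial genes took 3.09% of counts in Ground replicate 3 and 3.19% in Ground replicate 1, the lowest shares of the 18 libraries, and 5.16% in Ground replicate 2, and the part of this in the values was not tested. The remaining maxima were in BDF1, replicate 2 for *Atf4* and replicate 4 for *Trib3*.

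**Figure D4:**
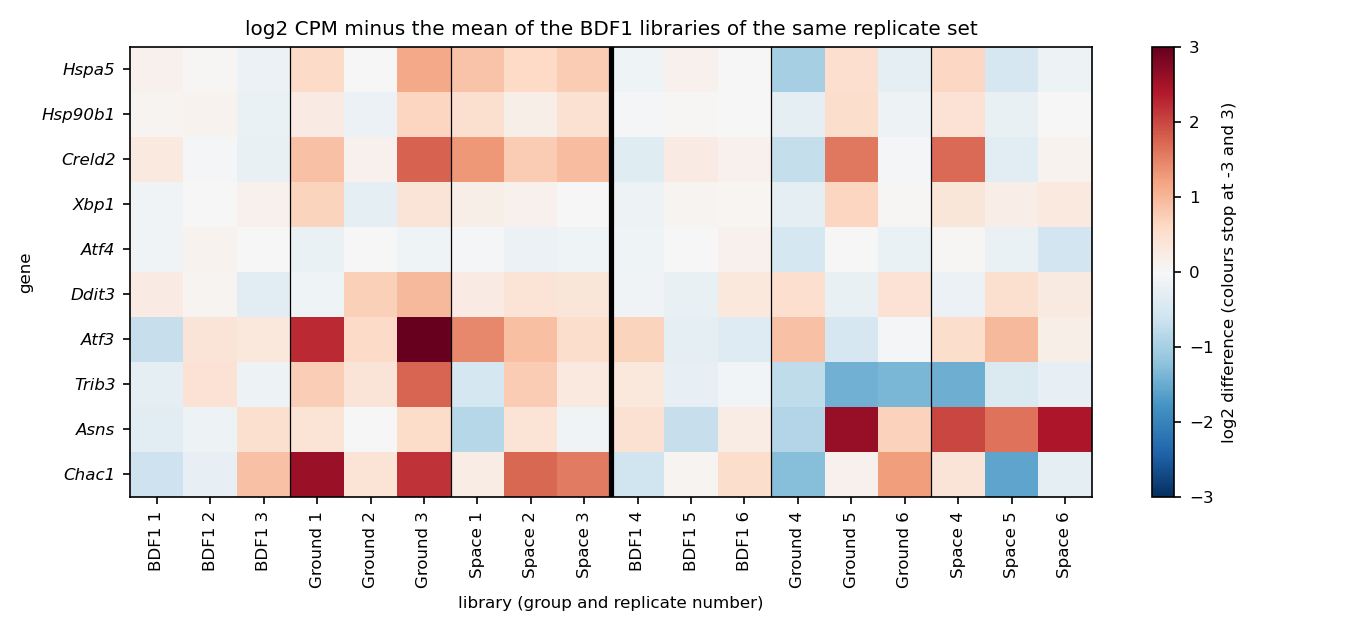
Log2 CPM (prior count of 2) of each gene in each library minus the mean of the BDF1 libraries of the same replicate set; red is higher, blue is lower, and colours stop at -3 and 3. The chaperone genes share their colours across libraries, with Ground replicates 3 and 5 and Space replicates 1 to 4 red and Ground replicate 4 blue.

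Across the 18 libraries, the 3 ERSE genes varied together. After the mean of each group and replicate set was taken out of log2 CPM, their 3 pairs had Pearson r of 0.943 to 0.977 and Spearman rho of 0.911 to 0.959, and r of 0.920 to 0.969 without the 2 libraries farthest from the median. The 4 CARE genes did not form such a group, with r of -0.19 to 0.51 over 6 pairs, and the 12 pairs between ERSE and CARE genes had r of -0.32 to 0.56. *Xbp1*, with neither motif in its window, correlated with *Hspa5* at 0.723, *Creld2* at 0.689 and *Hsp90b1* at 0.674, with *Asns* at 0.649 and *Chac1* at 0.592, and with *Ddit3* at -0.633. Without the 2 farthest libraries these were 0.507, 0.621, 0.403, 0.521, 0.598 and -0.581 in the same order. The points share library and depth, and *Asns*, *Atf3* and *Chac1* had few counts, so any r with them is uncertain and can rest on few libraries. The 5 tested genes most like *Hspa5* were *Creld2* (0.977), *Dnajb11* (0.973), *Manf* (0.963), *Sdf2l1* (0.956) and *Pdia4* (0.956), an Hsp40 co-chaperone, a secreted ER factor, a subunit of the ER chaperone complex and a disulphide isomerase following *Creld2*. Among 17 genes searched of the ER folding list below, ERSE matches were found in *Calr*, *Canx*, *Derl3*, *Dnajc3*, *Pdia6* and *Syvn1*. *Dnajb11*, *Manf*, *Sdf2l1* and *Pdia4* were not among these, so the covariation was not limited to genes with a match found. The 5 genes most like *Asns* were *Klhl36* (0.860), *Eif1a* (0.856), *Apmap* (0.855), *Cdc42* (0.852) and *Mrfap1* (0.848), none of which is an amino acid synthesis gene. *Asns* had 0 counts in Ground replicate 4 and 18 in Ground replicate 5, and such libraries can set an r. The r of *Asns* with *Hspa5* was 0.561, with a rho of 0.119, and was 0.005 without the 2 libraries farthest for *Hspa5*. These 5 r were not recomputed in that way.

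Other genes of the same pathways also passed the test against BDF1. Among 20 ER folding and degradation genes, 1 rose in Space and 1 in Ground in replicates 1 to 3, against 4.64% and 1.92% of all genes, and it was *Herpud1* in both, which encodes a membrane protein of ER-associated degradation. Its promoter window held a CARE and no ERSE. *Herpud1* was at 845 to 918 CPM in Space and 657 to 817 CPM in Ground against 251 to 344 CPM in BDF1, with log2 changes of 1.58 (SE 0.137, adjusted p = 1.21e-05) and 1.36 (SE 0.137, adjusted p = 0.000298, edgeR). It was 0.69 higher in each group in replicates 4 to 6, with adjusted p of 0.00451 in Space and 0.00334 in Ground, and neither passed when libraries were scaled by total counts. The Space change fell by 0.89 between the sets (adjusted p = 0.0170). *Pdia6* and *P4hb*, both disulphide isomerases, also rose in Ground replicates 4 to 6, by 1.16 and 0.67 (adjusted p = 0.0205 and 0.0367), and neither passed with total counts or without the *Serpina6*-rich libraries (0.10 and 0.09, adjusted p = 0.802 and 0.747). Neither was called in Space, where *Pdia6* was at 299 to 655 CPM against 232 to 246 in BDF1 and *P4hb* at 1373 to 2266 against 1059 to 1159. In replicates 4 to 6, 1 of the 20 rose in Space and 3 in Ground and 0 fell, against 11.9% and 15.2% of all genes called. Besides the main fit, 29 settings were run (the alternatives and each library left out). Over these, 0 to 4 rose and 0 to 3 fell in Space, and 0 to 7 rose and 0 to 1 fell in Ground. For replicates 1 to 3 these ranges were 1 to 5 and 0 to 1 in Space, and 1 to 3 rose and 0 fell in Ground. The median log2 change of the 20 genes was 0.23 and 0.13 in replicates 1 to 3 and 0.27 and 0.38 in replicates 4 to 6 for Space and Ground, against -0.00360 to 0.00980 over all genes.

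Of the 13 sensors and regulators, 0 were called in replicates 1 to 3 in edgeR, against 4.64% of all genes in Space and 1.92% in Ground, and 2 were called in Space and 3 in Ground in replicates 4 to 6, against 11.9% and 15.2%. In replicates 4 to 6, *Creb3l3*, a liver ER membrane factor of fasting metabolism, rose by 0.77 in Space (adjusted p = 0.00444) and 0.79 in Ground (adjusted p = 0.00283), and *Atf6b* fell by 0.53 and 0.64 (adjusted p = 0.0104 and 0.00261, edgeR). *Ern1* rose by 0.52 in Ground replicates 4 to 6 (adjusted p = 0.0222) and was not called with total counts or in limma voom. *Creb3l3* in Ground was likewise not called with total counts or without the *Serpina6*-rich libraries (0.43, adjusted p = 0.0895). With total counts 1 of the 13 rose and 6 fell in Space, and 0 rose and 5 fell in Ground, against 37.3% and 45.9% of all genes called under that scaling.

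Of 23 amino acid and ATF4 response genes, 21 were tested. In replicates 1 to 3, 4 rose and 1 fell in Space, and 4 rose and 0 fell in Ground, against 4.64% and 1.92% of all genes called. *Nupr1*, a small stress-induced chromatin protein, was at 8.59 to 32 CPM in Space and 24.3 to 57.0 CPM in Ground against 0.796 to 3.55 CPM in BDF1, with log2 changes of 3.00 (adjusted p = 0.00457) and 3.95 (adjusted p = 0.00242). *Ddit4*, an inhibitor of mTORC1, rose by 2.22 and 1.81 (adjusted p = 0.000490 and 0.00628). *Slc38a2*, a neutral amino acid transporter, rose by 1.58 and 1.16 (adjusted p = 0.000975 and 0.0172, edgeR). *Cebpb*, an ATF4 partner, rose by 1.39 in Ground (adjusted p = 0.0232) and, named here after its values were seen, by 1.42 in Space (adjusted p = 0.0120). *Slc7a5*, a large neutral amino acid transporter, fell by 1.48 in Space (adjusted p = 0.0175). Ground was not called for *Slc7a5* but lay at 1.16 to 3.07 CPM against 3.46 to 3.84 in BDF1. Without those 2 libraries highest in haploid germ cell markers, *Ddit4* and *Cebpb* in Ground were at 1.69 and 1.55 (adjusted p = 0.0582 and 0.0785) and *Slc7a5* in Space at -1.47 (adjusted p = 0.0736), so these calls were lost.

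In replicates 4 to 6, 4 of the 21 rose and 1 fell in Space, and 6 rose and 3 fell in Ground. Of all genes, 11.9% were called in Space (859 higher and 733 lower) and 15.2% in Ground (1050 higher and 981 lower). *Fgf21*, a hormone secreted by liver in fasting and amino acid shortage, was at 1.62 to 6.62 CPM in Space and 3.04 to 6.32 CPM in Ground against 0.179 to 0.738 CPM in BDF1, with log2 changes of 3.68 and 3.50 (adjusted p = 0.00427 and 0.00426, edgeR). *Slc7a5* fell by 1.45 and 1.43 (adjusted p = 0.0103 and 0.00823). *Ddit4* (1.26, adjusted p = 0.0169) and *Atf5* (0.52, adjusted p = 0.0397) rose in Space. In Ground *Ddit4* also lay above BDF1, at 6.48 to 11.3 CPM against 3.83 to 4.70. *Atf5* did too, at 508 to 656 CPM against 332 to 421, and its Space change was not called with total counts. *Nupr1* rose by 2.48 (adjusted p = 0.0144) and *Vldlr* fell by 1.58 (adjusted p = 0.0298) in Ground. In Space *Nupr1* was at 1.91 to 5.39 CPM against 0.806 to 0.851 in BDF1, and *Vldlr* at 2.89 to 5.84 against 6.40 to 14.0. Without the libraries rich in *Serpina6*, the calls of *Nupr1* (1.89, adjusted p = 0.210), *Slc7a5* (-1.06, 0.145) and *Vldlr* (-0.80, 0.389) in Ground and of *Ddit4* (0.98, 0.0614) and *Atf5* (0.41, 0.0994) in Space were lost, with 1 Ground and 2 Space libraries left in that set. The median log2 change over the 21 genes was 0.30 and 0.45 in replicates 1 to 3 and 0.31 and 0.47 in replicates 4 to 6. Over the 29 settings 1 to 5 rose and 0 to 4 fell in Space, and 2 to 8 rose and 1 to 5 fell in Ground. For replicates 1 to 3, 3 to 5 rose and 0 to 1 fell in Space, and 1 to 6 rose and 0 fell in Ground. Of the genes named, *Nupr1*, *Ddit4* and *Slc38a2* were called in all 29 for Space replicates 1 to 3 and *Fgf21* in all 29 for both pup groups in replicates 4 to 6. *Cebpb* was called in 24, *Slc7a5* in Space replicates 1 to 3 in 23, *Vldlr* in 22 and *Atf5* in 16. The *Slc38a2* change in Space was 1.78 lower in replicates 4 to 6 than in 1 to 3 (adjusted p = 0.00613), and was called in all 28 settings. That of *Fgf21* was 3.60 higher (adjusted p = 0.0480) and was called in 14 of 28, total counts and the fit without the *Serpina6* libraries (3.38, adjusted p = 0.0615) being among those where it was not. Without the libraries high in germ cell markers it was 3.94 (adjusted p = 0.0508).

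The 12 aminoacyl-tRNA synthetases, several of which are ATF4 targets, had 0 calls in replicates 1 to 3 in edgeR, against 4.64% of all genes in Space and 1.92% in Ground. Replicates 4 to 6 had 2 that rose in each pup group, *Cars* (1.51 in Space, adjusted p = 0.00279, and 1.87 in Ground, adjusted p = 0.000526) and *Tars* (0.78 and 0.81, adjusted p = 0.0230 and 0.0152), against 11.9% and 15.2% of all genes called, and the median change of the 12 was 0.06 and 0.01. With total counts 1 rose and 7 fell in Space and 1 rose and 6 fell in Ground, against 37.3% and 45.9% of all genes, and *Tars* was not called. Between Space and Ground, edgeR called 0 genes of these 4 lists in either replicate set, against 0.00749% and 0.0225% of all genes. Over 29 other settings, at most 1 synthetase rose in replicates 1 to 3 and at most 1 amino acid and ATF4 response gene in replicates 4 to 6. Called changes between the sets were also found for *Cars* (1.49 in Space and 1.94 in Ground, adjusted p = 0.0428 and 0.0137), for *Cebpb* in Space (-1.55, adjusted p = 0.0486) and for *Cth*, the last enzyme of cysteine synthesis, in Ground (-1.29, adjusted p = 0.0190, edgeR). Over 28 settings *Cars* was called in 15 and 27, *Cebpb* in 13 and *Cth* in 22. Without the libraries high in germ cell markers, *Cebpb* was at -1.70 (adjusted p = 0.108) and *Cth* at -1.22 (adjusted p = 0.0729), and without the *Serpina6* libraries *Cth* was at -0.92 (adjusted p = 0.0717).

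The model of both replicate sets called further genes of the lists against BDF1. *Sec61b*, a subunit of the channel into the ER, was 0.60 higher in Space (adjusted p = 0.0284, edgeR), and 0.32 (adjusted p = 0.0740) with total counts. In Ground *Dnajb9*, an ER co-chaperone, was 0.37 higher (adjusted p = 0.0465, edgeR) but was called in 10 of 29 settings, with 0.08 (adjusted p = 0.657) under total counts, 0.22 (0.274) without the *Serpina6* libraries and 0.35 (0.0956) without those high in germ cell markers. *Eif2ak2*, the kinase PKR, was at -0.62 in Ground (adjusted p = 0.0246, edgeR), and at -0.52 (adjusted p = 0.0634) without the *Serpina6* libraries. Of the synthetases, *Lars* was at -0.31 in Ground (adjusted p = 0.0171, called in 28 of 29 settings), and *Sars* was at 0.27 (adjusted p = 0.0189, edgeR) but at -0.013 with total counts. *Sars* was called in 24 of 29 settings, and not without the *Serpina6* libraries.

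**Figure D5:**
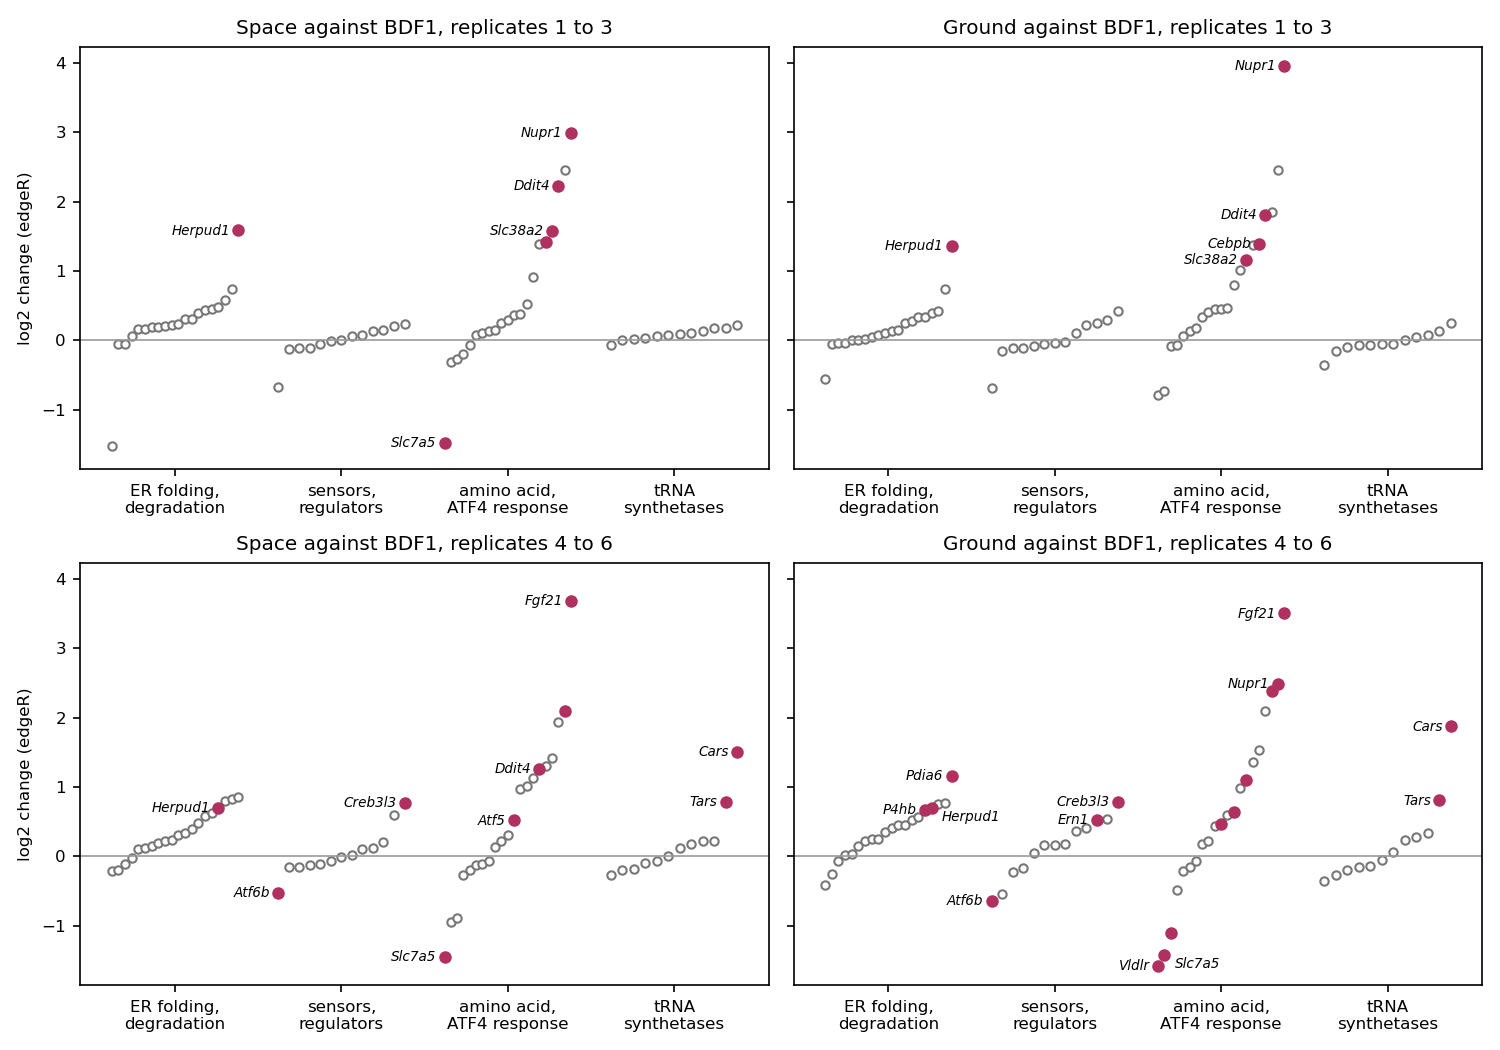
Log2 changes against BDF1 of the tested genes of 4 pathway lists, sorted within each list. Filled points passed the test in edgeR, and up to 4 per list with the largest changes among genes averaging at least 1 CPM are named. *Herpud1* is filled in all 4 panels, *Nupr1* in the upper ones and the lower right one.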

How the data were processed

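Liver RNA of 18 animals was sequenced from stranded mRNA libraries. The authors deposited 1 table of raw read counts per gene, for which the submitters' processing notes name bcl2fastq 2.20, cutadapt 4.6, HISAT2 2.2.1, HTSeq 2.0.2 and mm10. Strand and shared-read settings of the counting are not given in the sources used here, so reads of overlapping genes may be split or lost.

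Counts were scaled with TMM factors, genes were kept by filterByExpr (minimum count 10), and edgeR 4.0.16 (R 4.3.3) fitted 6 means (group by replicates 1 to 3 or 4 to 6) with a quasi-likelihood F-test. A second model had group and replicate set as terms. In both models the spread of each gene was estimated from all libraries together, so a comparison within 1 set also carries the spread of the other. P-values were adjusted by Benjamini-Hochberg over 13356 genes with a threshold of 0.05. SE was the log2 change divided by the square root of F, and intervals are 95% t intervals. Log2 CPM used a prior count of 2.

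The genes and pathway lists were chosen with earlier results of these data known. Of each list, up to 4 called genes per comparison were named, those with the largest log2 change and a mean of at least 1 CPM. For *Hspa5* and *Asns*, the 5 most correlated genes were named. Alternatives were DESeq2 1.42.0, limma 3.58.1 voom, total counts, other filters and thresholds, fewer libraries and a replicate block. Leaving out the 2 libraries highest in haploid germ cell markers or those with over 2% *Serpina6* was added after seeing the data. The fits were tested on simulated data. Libraries of a group differed beyond counting noise, with chi-square of at least 9.94 per gene.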

Additional observations from a re-analysis of the deposited data

Results flagged for a closer look

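*Trib3* gave both results singled out here. In Ground, replicate 3 stood apart from the other 5 libraries at 22.6 CPM, with a gap of 0.717 of the group's whole range, above Dixon's 95% critical value for 6 samples. Of 30 sets of 6 libraries examined (10 genes in 3 groups), this was 1 set beyond the limit, and chance places about 1 in 20 beyond it. The change of *Trib3* between Ground and BDF1 differed between replicates 4 to 6 and replicates 1 to 3 by a log2 value of -2.25 (SE 0.541; edgeR adjusted p = 0.0350), and by -1.73 (adjusted p = 0.0884) without that library.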

How the results depend on the processing

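The number of the 10 genes called in Ground against BDF1 in replicates 1 to 3 (1, *Atf3*) was 0 with total counts, with the replicate block and without the 2 libraries highest in haploid germ cell markers, 2 in limma voom (*Atf3*, *Chac1*), and 0 to 1 when each library was left out. The log2 change of *Atf3* was 1.71 to 3.07 over those 18 fits and was not called without Ground 1 or 3, Space 2 or 3, or BDF1 1, 2, 3, 5 or 6. Of all genes, limma voom called 8.21% in this comparison, DESeq2 4.61% and total counts 1.03%. The count in Ground against BDF1 in replicates 4 to 6 (1, *Trib3*) was 2 with total counts (*Atf4*, *Trib3*), 0 in limma voom, with the replicate block, in a fit of only the 9 libraries of that set, and without the libraries high in germ cell markers or in *Serpina6*, and 0 to 2 with each library left out. *Trib3* was then at -1.46 to -1.02 and was not called without Ground 5 or 6, Space 3 or 5, or BDF1 1, 3, 4, 5 or 6. Of all genes, 45.9% were called with total counts and 16.2% in limma voom in this comparison. The count for the difference between the sets in Ground (1, *Trib3*) was 2 with total counts, against 11.2% of all genes. The same count was 0 with the replicate block and without the germ cell libraries, and 0 to 2 with each library left out. It stayed 1 without the *Serpina6* libraries, but with *Hspa5* called lower and *Trib3* not called, in a fit with 1 Ground library in replicates 4 to 6 whose spread is taken from the other groups.

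For Space against BDF1 the count of 0 became 2 in limma voom and 1 without the *Serpina6* libraries in replicates 1 to 3. In replicates 4 to 6 it became 1 at an adjusted p under 0.1, with total counts (*Atf4* lower), in DESeq2, in limma voom and without the *Serpina6* libraries (*Asns* higher in these), and 0 to 1 with each library left out. With both sets in 1 model, total counts called 26.8% of all genes for Space and 27.3% for Ground, and the count became 1 for Space. For Ground it became 1 under adjusted p under 0.1, total counts, DESeq2, limma voom and without the *Serpina6* libraries, and 0 to 1 with each library left out. The difference between the sets in Space became 2 in limma voom and 1 without the *Serpina6* libraries. The counts between Space and Ground were 0 in each setting run. Among the list genes, *Sars* in Ground with both sets in 1 model was 0.27 (adjusted p = 0.0189) and -0.013 with total counts. The causes were not tested.

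Counts over all genes also moved. With total counts 4980 genes were called in Space and 6136 in Ground against BDF1 in replicates 4 to 6, against 1592 and 2031. In replicates 1 to 3, limma voom called 2369 and 1097, the replicate block 354 and 92, leaving out the germ cell libraries 183 and 45, and leaving out the *Serpina6* libraries 1207 and 709, against 620 and 257. Leaving out 1 library gave 201 (BDF1 2) to 769 in Space, and at most 314 where it was a Space or BDF1 library of that set, and 35 (BDF1 2) to 384 in Ground, and at most 140 where it was Ground 1 or 3 or BDF1 1, 2 or 3. For the set 4 to 6 it gave 636 (BDF1 5), 760 (BDF1 4) or 828 (Space 4) to 1940 in Space and 1114 (BDF1 5), 1279 (BDF1 6) or 1328 (BDF1 4) to 2386 in Ground. Between Space and Ground, 1 and 3 genes became 0 to 76 (without Ground 2) and 0 to 75 (without Space 4) when 1 library was left out. DESeq2 called 47 and 129 genes there, and limma voom 483 and 0.

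The replicate numbers did not pair the samples: deviations of same-numbered libraries correlated at -0.609 to 0.253, and 6 of 18 libraries correlated best with their own number. With 3 libraries per group and set and few counts, the intervals of *Asns*, *Atf3* and *Chac1* were wide.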
